A study of Mus musculus with 6 samples.

Results

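Major histocompatibility complex (MHC) class I molecules display fragments of the proteins made inside a cell to CD8+ T cells and to natural killer (NK) cells. The expression of the genes for this pathway was examined in the pancreas of mice with caerulein-induced acute pancreatitis (AP), with and without polyI:C pretreatment. The genes were chosen by name for their roles in the pathway, with no threshold on a measured value. The 10 members are H2-K1, H2-D1, B2m, Tap1, Tap2, Tapbp, Psmb8, Psmb9, Psmb10 and Nlrc5, among 22556 genes listed in each library. All 10 were listed and all 10 passed the filter of a mean of at least 1 TPM, as did 16814 genes in all. TPM divides the reads of a gene by its length and gives every library the same total, so that levels of different genes can be compared. The levels are shares of that total, and digestive enzyme genes such as Prss2 and Pnlip were not among the listed genes. How their absence bears on the levels was not tested.

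RNA was sequenced from the whole pancreas of 6 wild-type C57BL/6 male mice, given as 8 weeks old in the labels, with 2 mice in each group. Saline mice received saline in place of caerulein. AP mice were injected intraperitoneally every hour, 10 times in all, with 200 μg/kg caerulein, a cholecystokinin analogue that overstimulates acinar cells. PolyI:C-pretreated AP mice (polyI:C AP) received 10 mg/kg polyI:C, a double-stranded RNA mimic that activates TLR3, before the same caerulein course. Every pancreas was taken 24 h after the first injection, and the hours between polyI:C and caerulein are not given for the sequenced mice. Whole-tissue RNA mixes all cell types of the pancreas, so that fewer cells of a type and less RNA per cell cannot be told apart.

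As background, cytosolic proteins are cut by the proteasome, and inflamed cells can exchange its constitutive catalytic subunits for the immunoproteasome subunits encoded by Psmb8, Psmb9 and Psmb10. Peptides are pumped into the endoplasmic reticulum by the transporter made of Tap1 and Tap2, loaded with the help of tapasin (Tapbp), and carried to the surface by a heavy chain (H2-K1 or H2-D1 in these mice) bound to β2-microglobulin (B2m). Nlrc5 is a transcriptional activator of class I genes, and interferons are known inducers of most of the pathway.

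Of the 10 members, 7 lie on chromosome 17 in or near the mouse MHC (GENCODE M21, GRCm38). Psmb9, Tap1, Psmb8 and Tap2 lie next to each other within 34.3 kb, at chr17:34181987-34216321. H2-K1 ends 182 kb before this block, and H2-D1 starts 1046 kb after it. Psmb9 and Tap1 are transcribed in opposite directions from a shared start region. B2m (ENSMUSG00000060802) lies at chr2:122147686-122153083, Psmb10 (ENSMUSG00000031897) at chr8:105935735-105938444 and Nlrc5 (ENSMUSG00000074151) at chr8:94434356-94527272. The heavy chain genes are H2-K1 (ENSMUSG00000061232, chr17:33996017-34000347) and H2-D1 (ENSMUSG00000073411, chr17:35262730-35267499). Tapbp (ENSMUSG00000024308) lies at chr17:33915899-33929292. Within the block, Psmb9 (ENSMUSG00000096727) spans chr17:34181987-34187764, Tap1 (ENSMUSG00000037321) chr17:34187553-34197225, Psmb8 (ENSMUSG00000024338) chr17:34197721-34201454 and Tap2 (ENSMUSG00000024339) chr17:34203527-34216321. GENCODE M21 also holds transcripts of H2-K1, Psmb9 and H2-D1 that start farther upstream than the RefSeq starts used for the sequences.

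Start regions of 8 members were found in the RefSeq promoter table (GRCm38.p6), and those of the heavy chains, B2m and the Psmb9 and Tap1 pair are shown because their genes carried the changes described below. Each run reads 5′ to 3′ and ends just before a RefSeq start of its gene, except for the last run. That run spans the 225 bases between the 2 RefSeq starts on the plus strand. Capitals mark matches, on either strand, to an ISRE-like interferon response motif (GAAANNGAAA), a GAS motif (TTCNNNGAA), a CCAAT box (CCAAT), a κB motif (GGGGATTCC) or the X2 element of class I promoters (TGACG).
H2-K1, chr17:34000334-34000583, minus strand: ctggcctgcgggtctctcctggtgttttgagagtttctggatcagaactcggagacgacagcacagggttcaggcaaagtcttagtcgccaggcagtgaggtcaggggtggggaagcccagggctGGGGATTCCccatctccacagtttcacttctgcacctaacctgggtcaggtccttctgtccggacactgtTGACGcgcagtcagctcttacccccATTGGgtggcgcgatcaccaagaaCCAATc
H2-D1, chr17:35262844-35263093, plus strand: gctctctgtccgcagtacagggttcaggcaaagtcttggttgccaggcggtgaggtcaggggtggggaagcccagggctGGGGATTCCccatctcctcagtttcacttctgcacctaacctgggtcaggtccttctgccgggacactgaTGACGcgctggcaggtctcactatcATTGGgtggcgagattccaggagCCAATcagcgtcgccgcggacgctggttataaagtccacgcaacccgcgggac
B2m, chr2:122147437-122147686, plus strand: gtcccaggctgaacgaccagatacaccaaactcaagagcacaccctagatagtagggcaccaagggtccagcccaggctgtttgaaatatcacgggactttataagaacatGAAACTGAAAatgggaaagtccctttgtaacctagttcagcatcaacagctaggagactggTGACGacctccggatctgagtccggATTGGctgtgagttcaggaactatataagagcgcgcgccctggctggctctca
Between Psmb9 and Tap1, chr17:34187331-34187555, plus strand: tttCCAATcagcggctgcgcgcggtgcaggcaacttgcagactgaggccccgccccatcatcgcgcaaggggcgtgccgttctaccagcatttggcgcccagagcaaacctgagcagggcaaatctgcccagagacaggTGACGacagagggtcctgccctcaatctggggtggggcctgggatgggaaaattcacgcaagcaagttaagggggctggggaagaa

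The motifs were counted from 250 bases before to 50 bases after each start, in 32851 promoters of 27025 genes, and no motif overlapped another in the runs shown. The κB motif was found in the H2-K1 and H2-D1 promoters, and in 0.250% of all promoters. The exact letters GAAANNGAAA were found in the B2m promoter alone among the members searched, at position -139, and in 3.44% of all promoters. Looser forms of this or any other motif were not searched, so a promoter without a match may still hold one. TGACG was found in 5 of the 8 members searched (B2m, H2-D1, H2-K1, Psmb9 and Tap1) and in 20.8% of all promoters. CCAAT was found in those 5 and in Tapbp, and in 37.4% of all promoters. H2-K1 has another RefSeq start farther upstream, from which the last CCAAT of its run lies at position 8 in place of -6. The GAS motif was found in the Psmb8 promoter, and in 8.30% of all promoters. The H2-K1 and H2-D1 promoters were identical at 217 of 242 aligned positions (89.7%), with a longest shared run of 47 bases. A match describes letters in the window and is not evidence of binding.

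The libraries differed in depth. The files hold no read counts, and the spacing of low TPM values gave estimates of 3310387 and 3961668 reads in the saline mice and of 6902372 to 10825074 reads in the other 4 mice. Psmb9 rested on about 8 and 5 estimated reads under saline, Psmb8 on about 29 and 11, and Nlrc5 on about 23 and 16, so that these levels carry the largest counting error among the members. AP replicate 2 stood apart in B cell markers, with a summed level of 35.8 TPM over Cd79a, Cd79b and Ms4a1, against 5.53 TPM in AP replicate 1 and 2.10 to 11.6 TPM in the other mice. Pancreas identity was visible in every library, with Ins1 at 282 to 656 TPM and the amylase gene Amy2a5 at 16.9 to 290.1 TPM. A linear model (limma) was fitted to log2(TPM + 0.5) of all 6 mice, and a gene was called when its Benjamini-Hochberg adjusted p was at most 0.05 and its change at least 2-fold. Log2 fold changes are on this scale, which makes the changes of low genes look smaller than they are, and are followed by their SE. The smallest two-sided p of an exact permutation test is 0.333 with 2 mice in each group, and the adjusted p-values reflect only the spread between these mice.

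**Figure D1:**
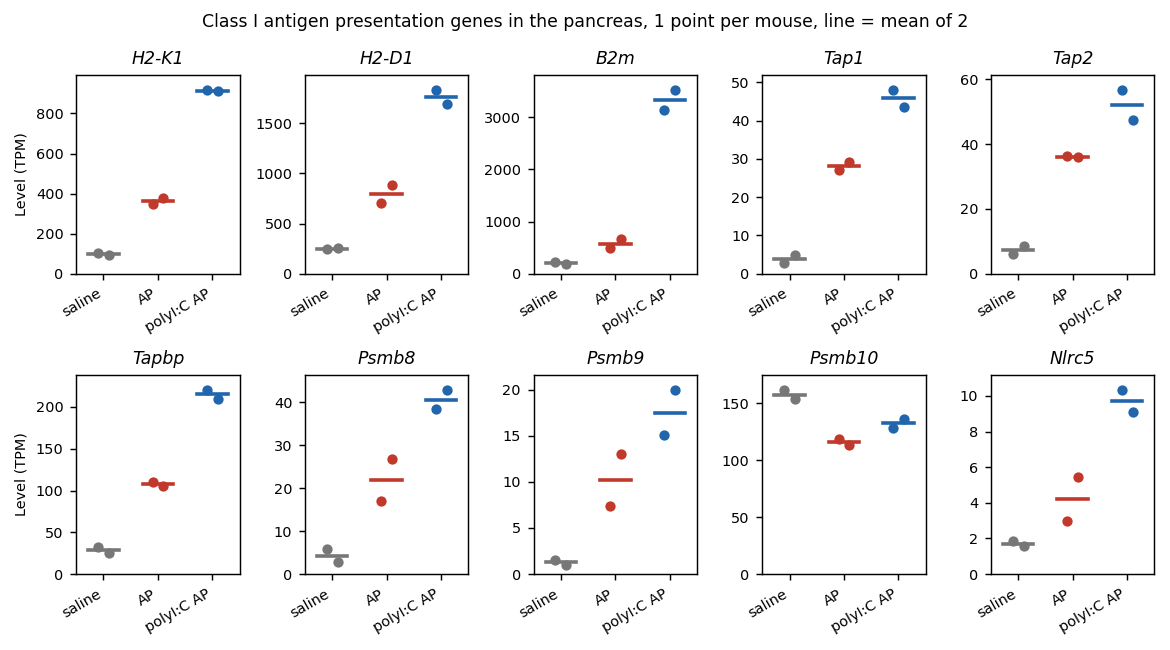
Level in TPM (y axis, linear, from 0) of each of the 10 members in saline, AP and polyI:C AP mice, with 1 point per mouse and a line at the mean of 2 mice. In 9 panels the order is saline, AP, polyI:C AP from low to high, and in the Psmb10 panel the saline mice are highest, at 153 and 161 TPM.

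The heavy chain and B2m transcripts were the most abundant members in AP and polyI:C AP mice, and they were higher in AP than in saline mice and higher again after polyI:C pretreatment. H2-K1, the heavy chain of the K molecule, was at 101.7 and 92.0 TPM under saline, 348 and 379 TPM in AP, and 918 and 911 TPM in polyI:C AP. H2-D1, the heavy chain of the D molecule, was at 242 and 255 TPM, 708 and 889 TPM, and 1833 and 1696 TPM in the same order of groups. B2m, the light chain shared by all class I molecules, was at 222 and 193 TPM, 494 and 659 TPM, and 3138 and 3521 TPM. The 3 groups did not overlap for any of these genes. Of all tested genes, 52.6% had both AP mice above both saline mice, and 27.7% had both polyI:C AP mice above both AP mice. The step from AP to polyI:C AP was the larger step for B2m and the smaller for both heavy chains on the log2 scale.

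In AP against saline mice, H2-K1 rose by 1.90 ± 0.09 (adjusted p = 5.38e-05, limma), H2-D1 by 1.67 ± 0.13 (adjusted p = 0.000193) and B2m by 1.46 ± 0.16 (adjusted p = 0.000658). In polyI:C AP against AP mice, B2m rose by 2.54 ± 0.16, a 5.82-fold difference (adjusted p = 0.00371, limma). H2-K1 rose by 1.33 ± 0.09 (adjusted p = 0.00371) and H2-D1 by 1.15 ± 0.13 (adjusted p = 0.0187). Against saline mice, the polyI:C AP mice had 16.0-fold more B2m, 9.41-fold more H2-K1 and 7.08-fold more H2-D1 transcript. Ordered by p over all 16814 tested genes, B2m was at rank 6, H2-K1 at rank 15 and H2-D1 at rank 47 in the comparison with AP mice. These calls rested on both mice of each group, since none of the 3 genes was called with an AP or a polyI:C AP mouse left out. In those fits the log2 fold change of B2m remained between 2.33 and 2.75, that of H2-K1 between 1.27 and 1.39, and that of H2-D1 between 0.99 and 1.32, under 2-fold without AP replicate 1.

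The balance of heavy chain to light chain transcripts differed between the groups. The ratio of H2-K1 plus H2-D1 to B2m, which does not move with the scaling between libraries, was 1.55 and 1.80 under saline, 2.14 and 1.92 in AP, and 0.877 and 0.741 in the polyI:C AP mice. Both polyI:C AP mice were below all 4 other mice, and the log2 ratio was -1.33 against AP mice (exact permutation p = 0.333, the smallest possible). H2-D1 stood at 1.86 to 2.78 times the level of H2-K1 in every mouse.

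The transcripts for peptide transport and loading rose in AP mice and were not called after polyI:C pretreatment. Tap1 was at 2.91 and 4.88 TPM under saline, 27.0 and 29.1 TPM in AP, and 48.0 and 43.7 TPM in polyI:C AP. Tap2, its partner in the transporter, was at 5.99 and 8.58 TPM, 36.2 and 36.0 TPM, and 56.7 and 47.3 TPM. Tapbp, which bridges the transporter and the empty class I molecule, was at 32.3 and 25.1 TPM, 110.7 and 105 TPM, and 220.1 and 210.0 TPM. For each of these genes both AP mice lay above both saline mice, as for 52.6% of all tested genes. Both polyI:C AP mice lay above both AP mice for each, as for 27.7% of all tested genes.

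Tap1 rose by 2.74 ± 0.21 on the log2 scale in AP against saline mice (adjusted p = 0.000229, limma). Tap2 rose by 2.25 ± 0.19 (adjusted p = 0.000281) and Tapbp by 1.90 ± 0.13 (adjusted p = 0.000155). Between polyI:C AP and AP mice, Tapbp had a log2 fold change of 0.99 ± 0.13 with an adjusted p of 0.0280, which passed the p threshold and lay just under 2-fold. Tap1 (0.70 ± 0.21, adjusted p = 0.213) and Tap2 (0.52 ± 0.19, adjusted p = 0.292) did not pass the test in limma. The Tap1 to Tap2 ratio was 0.486 and 0.569 under saline, 0.746 and 0.808 in AP, and 0.847 and 0.922 in the polyI:C AP mice, so the groups did not overlap (exact permutation p = 0.333 for each pair of groups). Parts of these genes share sequence or exons with others. Of the 100-base stretches of Tapbp, 12.7% also occur in other transcripts, 5.07% of those of Tap2 do, and 212 exonic bases of Tap1 (3.87%) overlap Psmb9 on the opposite strand. On the opposite strand, exons of Gm19412 overlap 24.9% of Tapbp, those of Gm15821 overlap 14.1% of Tap2, and Zbtb22 overlaps 4.11% of Tapbp on the same strand. The strand setting of the read counting is not given in the sources used here.

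The 3 immunoproteasome subunits did not move alike. Psmb8, the subunit that replaces Psmb5, was at 5.88 and 2.77 TPM under saline, 16.9 and 26.7 TPM in AP, and 38.4 and 42.8 TPM in polyI:C AP. Psmb9, which replaces Psmb6, was at 1.58 and 1.04 TPM, 7.33 and 13.0 TPM, and 15.1 and 19.9 TPM. Psmb10, which replaces Psmb7, was at 161 and 153 TPM, 119 and 114 TPM, and 128 and 136 TPM. Psmb8 and Psmb9 were lowest under saline, whereas Psmb10 was highest there, and the groups did not overlap for any of the 3 genes. Both AP mice lay above both saline mice in 52.6% of all tested genes and below them in 16.4%. Both polyI:C AP mice lay above both AP mice in 27.7%. On the opposite strand, exons of Gm20496 overlap 14.7% of Psmb8 and those of Tap1 overlap 5.79% of Psmb9. The next gene downstream of Psmb10 on the same strand, Ctrl, lies 1873 bases away. Whether it bears on the Psmb10 level was not tested.

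In AP against saline mice, Psmb9 rose by 2.53 ± 0.33 (adjusted p = 0.00133, limma) and Psmb8 by 2.25 ± 0.35 (adjusted p = 0.00273). Psmb10 had a log2 fold change of -0.43 ± 0.10 with an adjusted p of 0.0140, short of 2-fold, and its direction was the same in all 17 alternative fits. Between polyI:C AP and AP mice, the log2 fold changes were 0.91 ± 0.35 for Psmb8 (adjusted p = 0.315), 0.79 ± 0.33 for Psmb9 (adjusted p = 0.350) and 0.18 ± 0.10 for Psmb10 (adjusted p = 0.492). Markers of acinar cells were compared in the same mice. Of 10 acinar genes 4 were listed, their summed level was 775 to 964 TPM in saline, 187 to 235 TPM in AP and 478 to 518 TPM in polyI:C AP mice, and none was at 0. Of the 4, 3 (Amy2a5, Bhlha15 and Rbpjl) were called lower in AP than in saline mice, with log2 fold changes of -3.65 to -1.23. The same 3 were called higher in polyI:C AP than in AP mice (1.08 to 1.73). Among the 16814 tested genes, 677 were called lower in AP than in saline mice, and 0.44% were called higher in polyI:C AP than in AP mice. Ptf1a had log2 fold changes of 0.20 and 0.73 in these comparisons and was called in neither. The part of acinar cells in the result for Psmb10 was not tested.

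The constitutive counterparts rose in AP mice too. Psmb5 was at 99.1 and 116 TPM under saline and 208 and 246 TPM in AP, and rose by 1.08 ± 0.13 (adjusted p = 0.00121, limma). Psmb6 rose by 1.15 ± 0.11 (adjusted p = 0.000510) and Psmb7 by 1.18 ± 0.14 (adjusted p = 0.000837). None of the 3 was called between polyI:C AP and AP mice, with log2 fold changes of 0.29 to 0.38. Of all tested genes, 0.44% were called higher in that comparison.

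Within a mouse, the Psmb8 to Psmb5 ratio was 0.0594 and 0.0238 in saline, 0.0811 and 0.109 in AP, and 0.137 and 0.155 in polyI:C AP mice. The Psmb9 to Psmb6 ratio was 0.0141 and 0.00902, 0.0321 and 0.0469, and 0.0478 and 0.0640. Both ratios increased from group to group without overlap. The Psmb10 to Psmb7 ratio ran the other way, with 3.50 and 3.54 in saline, 1.31 and 0.990 in AP, and 1.01 and 0.978 in polyI:C AP mice, where the last 2 groups overlapped. The ratio of the summed 3 inducible to the summed 3 constitutive subunits was 0.657 and 0.573 in saline, 0.271 and 0.240 in AP and 0.252 and 0.273 in polyI:C AP mice, a log2 change of -1.27 in AP against saline mice (exact permutation p = 0.333). Without Psmb10 and Psmb7, a choice made after the values were seen, the same ratio had a log2 change of 1.43 (exact permutation p = 0.333). The direction of the summed ratio thus depended on whether this pair was included.

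**Figure D2:**
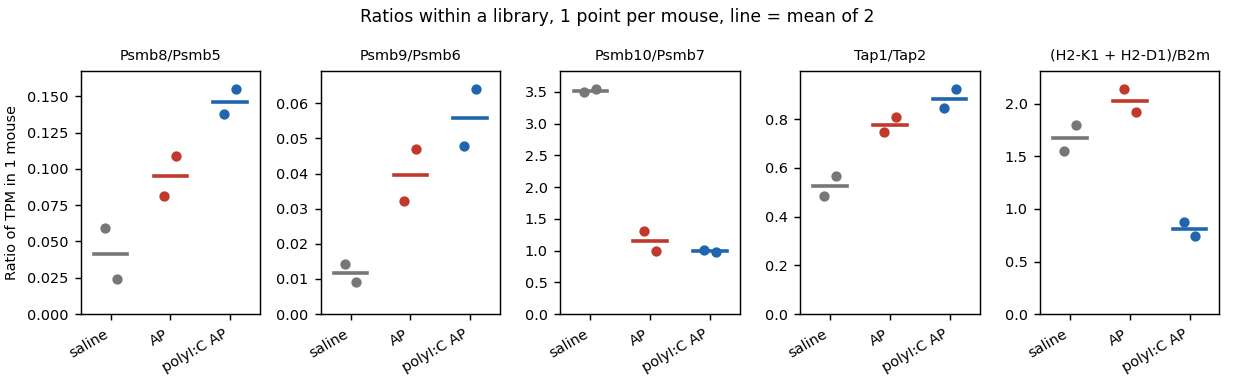
Ratio of TPM values within a library (y axis, linear, from 0) for 5 pairs of transcripts in the 3 groups, with 1 point per mouse and a line at the mean of 2 mice. Psmb8/Psmb5 and Psmb9/Psmb6 are lowest in saline mice, Psmb10/Psmb7 is highest there (3.50 and 3.54), and the heavy chain to B2m ratio is lowest in polyI:C AP mice (0.877 and 0.741).

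Nlrc5, the class I activator, was the least abundant member in the AP and polyI:C AP mice. It was at 1.85 and 1.56 TPM under saline, 2.97 and 5.43 TPM in AP, and 10.3 and 9.11 TPM in polyI:C AP, with no overlap between groups. Both AP mice lay above both saline mice in 52.6% of all tested genes, and both polyI:C AP mice above both AP mice in 27.7%. Nlrc5 rose by 1.04 ± 0.28 in AP against saline mice (adjusted p = 0.0239, limma), close to the 2-fold limit, and was called in 5 of 17 alternative fits. Without AP replicate 2, the library with high B cell markers, the log2 fold change of Nlrc5 was 0.65, and the part of B cells in it was not tested. It was 1.43 without AP replicate 1, 1.14 without saline replicate 1 and 0.95 without saline replicate 2. Under median-of-ratios scaling of all 6 mice it was 0.69, and Nlrc5 was not called (adjusted p = 0.0992, limma). Between polyI:C AP and AP mice Nlrc5 had a log2 fold change of 1.17 ± 0.28 and did not pass the test (adjusted p = 0.123). Against saline mice it rose by 2.21 ± 0.28 (adjusted p = 0.00132).

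Counted together, 9 of the 10 members were called higher in AP than in saline mice, against 18.2% of all tested genes, and none was called lower. Psmb10 was the 1 member with an adjusted p of at most 0.05 and a lower level at any fold, against 7.39% of all tested genes, and 16.4% of them had both AP mice below both saline mice. The members had a median log2 fold change of 1.90, beside 0.45 for all tested genes. Under a median-of-ratios scaling the median of all genes was 0.05, the called genes were 1565 higher of 2790 in place of 3053 higher of 3730, and 8 members were called higher, with a median of 1.48. Leaving out AP replicate 2 gave 8 members called higher.

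After polyI:C pretreatment, 3 of the 10 members (B2m, H2-K1 and H2-D1) were called higher than in AP mice, against 0.44% of all tested genes. With Tapbp, 4 members had an adjusted p of at most 0.05 at any fold, against 0.714% of all tested genes. All 10 members had both polyI:C AP mice above both AP mice, against 27.7% of all tested genes. A higher level with an unadjusted p of at most 0.05 was found for 9 members and for 1317 of the 16814 tested genes. The median log2 fold change was 0.95, beside 0.04 for all genes. With an AP or a polyI:C AP mouse left out, no member was called, and 0 to 66 genes were called in the whole table. Against saline mice, 9 members were called higher in the polyI:C AP mice, against 16.9% of all tested genes, with a median of 3.03 beside 0.48. The comparisons share the AP or the saline mice and are not independent of each other.

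**Figure D3:**
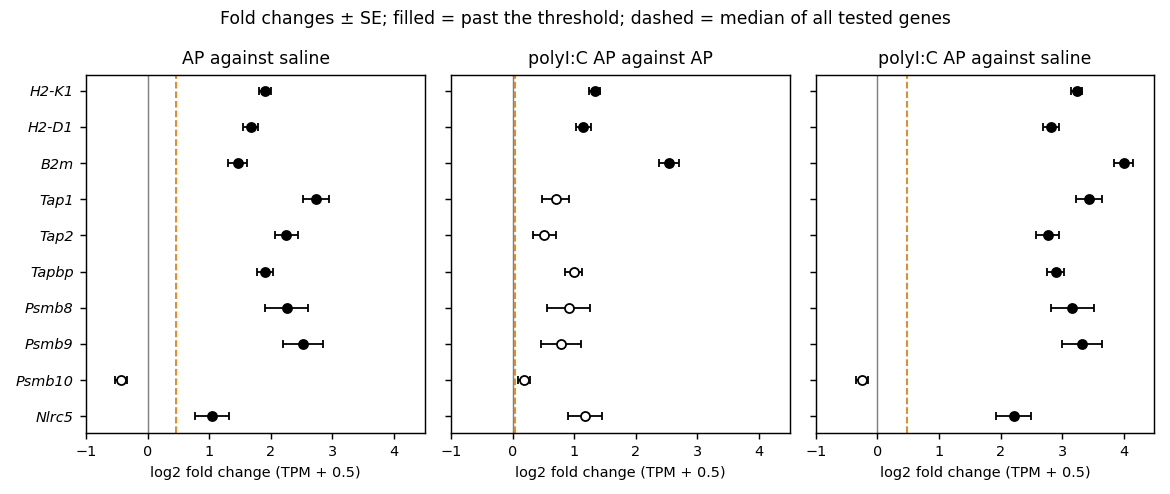
Log2 fold change (x axis, on the log2(TPM + 0.5) scale) of each member in the 3 comparisons, with bars for the SE, filled points for genes past the threshold and a dashed line at the median of all tested genes. In AP against saline mice 9 members are filled and Psmb10 lies at -0.43, and in polyI:C AP against AP mice B2m is farthest to the right, at 2.54.

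The members together made up 0.0737 and 0.0778% of all TPM under saline, 0.187 and 0.226% in AP, and 0.641 and 0.664% in the polyI:C AP mice. H2-K1, H2-D1 and B2m supplied 72.8 to 73.3% of the members' sum in saline, 82.9 to 85.4% in AP and 91.9 to 92.3% in polyI:C AP mice. In saline mice the order of the levels was H2-D1, B2m, Psmb10, H2-K1, Tapbp, Tap2, Psmb8, Tap1, Nlrc5 and Psmb9, where the ranges of Psmb8 and Tap1 and those of Nlrc5 and Psmb9 overlapped. In AP mice H2-K1 stood above Psmb10, Tap1 above Psmb8 and Psmb9 above Nlrc5, with no overlap between neighbours. In polyI:C AP mice B2m stood above H2-D1 and Tapbp above Psmb10, and the ranges of Tap2 and Tap1 overlapped. Across the 6 libraries, which share these group differences, Pearson's r of each member with the mean of the other members was 0.93 to 1.00, except for Psmb10 at -0.68. Other genes were ranked by Pearson's r with the mean of the members over the 6 libraries. The ranking left out the genes of the lists and marker sets used here and genes with a low mean level. The highest 5 of the remaining 8406 protein-coding genes were Dtx3l (0.998), Btd (0.997), Letm1 (0.997), Stk16 (0.997) and Aspscr1 (0.996). Dtx3l, an E3 ubiquitin ligase, had a mean of 8.92 TPM in saline, 30.2 TPM in AP and 66.7 TPM in polyI:C AP mice.

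Of 14 other class I genes tested, 7 were called higher in AP mice and 4 in polyI:C AP against AP mice, with no gene called lower. Of all tested genes, 18.2% and 0.44% were called higher in these comparisons. H2-T22 and H2-T23 were called in both comparisons. The list medians were 0.95 and 1.05, beside 0.45 and 0.04 for all tested genes. The 7 were H2-Q4, Hfe, H2-M3, H2-T24, H2-T22, H2-T23 and Mr1, with log2 fold changes of 1.03 to 1.89. H2-Q6 was at 6.72 and 7.88 TPM under saline, 5.63 and 14.5 TPM in AP, and 68.4 and 65.8 TPM in polyI:C AP. It rose by 2.82 in polyI:C AP against AP mice (adjusted p = 0.0306, limma). H2-Q7 (2.56), H2-T23 (1.97) and H2-T22 (1.05) were also called in that comparison, and H2-T23 encodes Qa-1, the ligand of an NK cell receptor. The lowest values there were those of Fcgrt (-0.37) and H2-M3 (-0.24), neither of which passed the test, and H2-T10 and H2-Bl were not analysed here. H2-Q1 and H2-T3 stood at 13.3 and 7.25 TPM in polyI:C AP replicate 2 and at most at 0.14 TPM in every other mouse, and neither passed the test. Some class I genes share stretches of sequence. Of the 100-base stretches of H2-D1, 4.09% also occur in genes such as H2-Q1 and H2-T23, whereas none of those of H2-K1 occurs in another gene. Sharing was not computed for the other class I genes, and how the counting split shared reads is uncertain.

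Among the genes for loading and trimming, 3 of 10 were called higher in AP mice and none after polyI:C, against 18.2% and 0.44% of all tested genes. With log2 fold changes in parentheses, the called genes were Tapbpl, a tapasin relative (1.80), Erap1, which trims peptides in the endoplasmic reticulum (1.50), and the cytosolic aminopeptidase Npepps (1.02). The lowest values were those of the translocon gene Sec61a1 (-0.49) and of Lnpep (-0.02). Between polyI:C AP and AP mice, the values ran from -0.55 for the chaperone Calr (adjusted p = 0.0537, limma) to 0.52 for Erap1 (adjusted p = 0.0718). The list medians were 0.75 and -0.01 in these comparisons, beside 0.45 and 0.04 for all tested genes.

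Of the proteasome activators and assembly factors, 3 of 4 were called higher in AP mice, against 18.2% of all tested genes. Psme1 and Psme2, the subunits of an interferon-inducible activator, were at 8.53 and 7.83 TPM and at 19.8 and 18.9 TPM under saline. With AP they were at 54.1 and 51.5 TPM and at 122 and 129 TPM, rises of 2.62 and 2.67 on the log2 scale. Pomp, the assembly chaperone, rose by 1.74, and Psme3 had a log2 fold change of 0.91. None of the 4 was called after polyI:C, with values from -0.09 for Pomp to 0.56 for Psme1. Of all tested genes, 0.44% were called higher in that comparison.

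Of 14 regulators of class I genes, 7 were called higher in AP mice and none between polyI:C AP and AP mice. Of all tested genes, 18.2% and 0.44% were called higher in these comparisons. The list medians were 0.95 and -0.09 on the log2 scale, beside 0.45 and 0.04 for all tested genes. On the log2 scale, those 7 were Rela (2.22), Irf1 (1.98), Irf9 (1.81), Rfx5 (1.56), Irf8 (1.44), Stat2 (1.43) and Nfkb1 (1.10). Irf1, a direct activator of class I promoters, was at 7.35 and 6.50 TPM in saline, 28.3 and 29.0 TPM in AP, and 21.1 and 27.7 TPM in polyI:C AP mice. Irf9, which binds interferon response motifs in a complex with Stat2, was at 6.90 and 5.91 TPM, 21.5 and 26.1 TPM, and 47.1 and 48.1 TPM. Its log2 fold change after polyI:C was 0.99 (adjusted p = 0.0344, limma), just under 2-fold, and that of Stat2 was 1.11 (adjusted p = 0.158). The lowest values in that comparison were those of Ciita, the MHC class II activator (-1.48), and Irf8 (-1.21), neither of which passed the test.

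Interferon-induced genes outside the antigen presentation pathway were compared as a gauge. In AP mice 10 of 11 were called higher, namely Rsad2 (4.39), Oas1a (2.84), Mx1 (2.45), Usp18 (2.33), Gbp2 (1.82), Gbp3 (1.71), Igtp (1.71), Ifit1 (1.41), Ifit3 (1.31) and Isg15 (1.19) on the log2 scale. Irgm1 at 0.93 did not reach 2-fold. After polyI:C, Ifit1 (3.23), Isg15 (2.81), Oas1a (2.66), Ifit3 (2.49) and Gbp3 (2.37) were called higher than in AP mice, and Mx1 had a log2 fold change of -0.20. Isg15 was at 4.53 and 3.34 TPM in saline, 6.81 and 13.2 TPM in AP, and 65.6 and 73.8 TPM in polyI:C AP mice. The list medians were 1.71 in AP against saline and 2.37 in polyI:C AP against AP mice, beside 0.45 and 0.04 for all tested genes. Of all tested genes, 18.2% and 0.44% were called higher in these comparisons. All 4 interferon receptor genes listed were called higher in AP mice (1.18 to 1.58 on the log2 scale), and none was called after polyI:C (-0.32 to -0.11). Ifnb1 and Ifng were not analysed here.

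**Figure D4:**
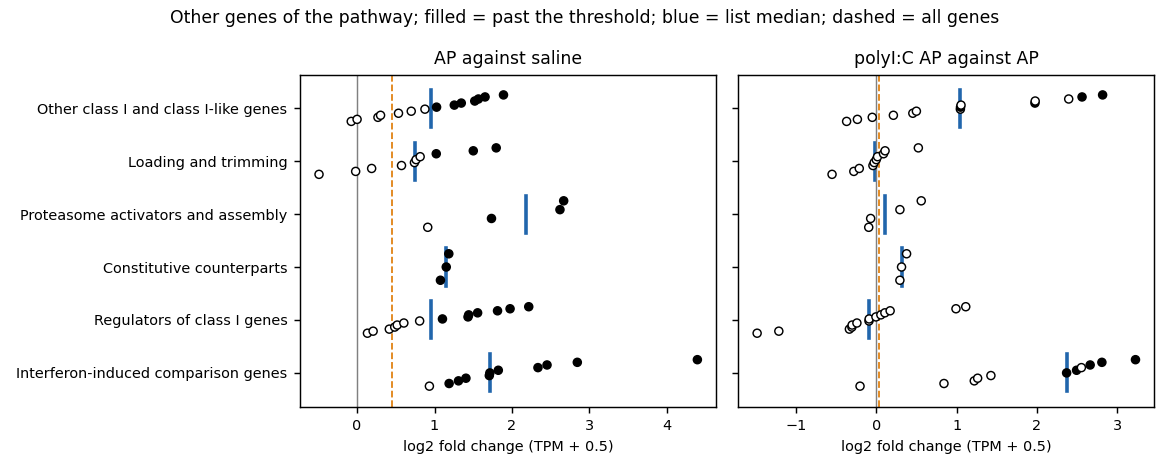
Log2 fold changes (x axis, on the log2(TPM + 0.5) scale) of the other genes of the pathway by list, with filled points past the threshold, a blue bar at the list median and a dashed line at the median of all tested genes. In AP against saline mice every list has filled points, whereas in polyI:C AP against AP mice they are found in the other class I genes (4) and the interferon-induced genes (5).

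Markers of leukocytes and of macrophages were called higher in AP mice, and some of them were called lower after polyI:C. Among the 16814 tested genes, 18.2% were called higher in AP mice, and 68 genes were called lower in polyI:C AP against AP mice. All 5 leukocyte markers were called higher in AP mice and 2 of them, Coro1a (-2.35) and Cd53 (-2.17), lower in polyI:C AP against AP mice, with summed levels of 42.1 and 53.3 TPM in saline, 188 and 260 TPM in AP, and 48.9 and 53.0 TPM in polyI:C AP mice. None of the 5 was at 0, and Ptprc, the pan-leukocyte marker, ran from 3.40 to 14.4 TPM. Macrophage and monocyte markers (6 of 7 called higher in AP mice) summed to 615 and 419 TPM, 2328 and 2673 TPM, and 431 and 302 TPM. After polyI:C, 4 of them were called lower than in AP mice on the log2 scale, Ccr2 (-3.82), Lyz2 (-3.68), Mrc1 (-2.68) and Csf1r (-1.97). Lyz2 alone was at 444 and 307 TPM in saline, 1891 and 2118 TPM in AP, and 203 and 119 TPM in polyI:C AP mice. Against saline mice, Cd68 (1.78) and C1qa (1.11) were called higher in the polyI:C AP mice, and Lyz2 (-1.245) and Csf1r (-1.01) lower. In that comparison 16.9% of all tested genes were called higher and 500 genes lower. Summed leukocyte markers in the polyI:C AP mice lay within the range of the saline mice. Among the single markers, Cd53 and Laptm5 were higher in both polyI:C AP mice than in both saline mice. Coro1a, Cd52 and Ptprc overlapped between these groups. The part of leukocytes in the levels of class I transcripts was not tested, in AP mice or in polyI:C AP mice.

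T and NK cell markers stayed low throughout, with summed levels of 1.68 to 6.56 TPM over 7 genes, and the Cd8a transcript was at most at 1.40 TPM. Of 5 receptors and partners on these cells, 2 were tested and neither was called in any comparison. No B cell, dendritic cell or endothelial marker that was tested was called. Of the 5 dendritic cell markers 2 were tested, and Flt3, Xcr1 and Siglech were below the filter. Of 5 fibroblast and stellate cell markers, the collagen genes Col1a1 (1.95) and Col1a2 (1.71) were called higher in AP mice. Dcn, the most abundant of the 5, had a log2 fold change of -0.73 (adjusted p = 0.0332, limma), short of 2-fold. Pdgfrb (0.88) and Pdgfra (0.35) were not called either. None of the 5 was called between polyI:C AP and AP mice, where Pdgfra was lowest (-1.10, adjusted p = 0.0581, limma). The part of these cells in the class I values was not tested. Among the 5 duct cell markers, 4 were called higher in AP mice, and none was called between polyI:C AP and AP mice. On the log2 scale, Krt19 and Epcam, which are expressed by duct epithelium, rose by 4.17 and 2.90 in AP mice, Cftr by 2.01 and Krt7 by 1.29, and their part in the class I values was not tested. Of the 5 neutrophil markers listed, Retnlg (3.41) and S100a9 (2.52) were called higher in AP mice and none was called after polyI:C. Their sums were 5.80 and 17.6 TPM in saline, 58.1 and 69.4 TPM in AP, and 19.2 and 40.6 TPM in polyI:C AP mice. For comparison with these counts of markers, 18.2% of all tested genes were called higher in AP mice.

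**Figure D5:**
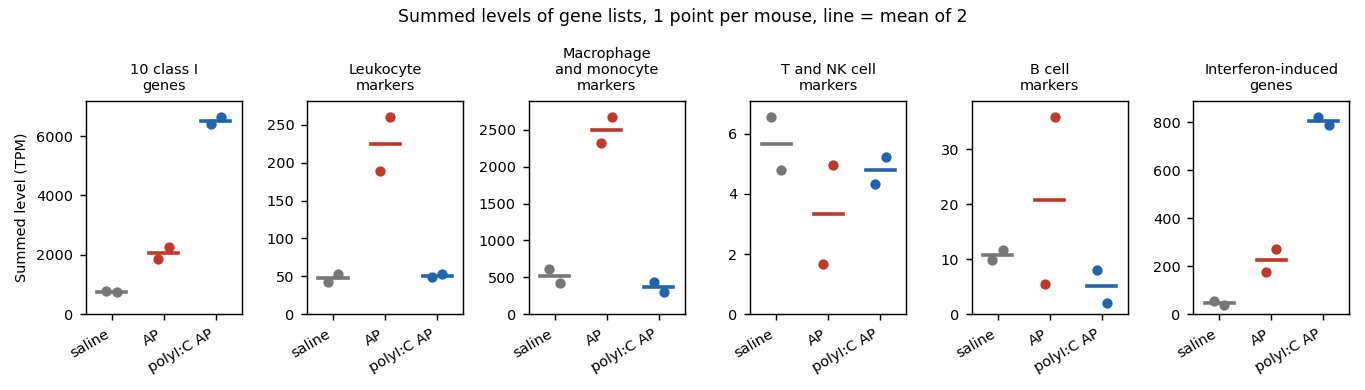
Summed level in TPM (y axis, linear, from 0) of the 10 members and of 5 gene lists in the 3 groups, with 1 point per mouse and a line at the mean of 2 mice. The members and the interferon-induced genes are highest in polyI:C AP mice, leukocyte and macrophage markers are highest in AP mice, and 1 AP mouse has B cell markers at 35.8 TPM.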

How the data were processed

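RNA-sequencing of whole pancreas was analysed in 3 groups of 2 mice (saline, AP and polyI:C AP), formed by the sample labels. The authors used Trimmomatic for trimming, STAR for mapping to mm10 and htseq-count for read counts, and deposited TPM values per gene. The step from counts to TPM is not given in the sources used here, and TPM does not state the depth. The labels name both a ribosomal RNA depletion and a stranded mRNA kit.

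Genes that averaged 1 TPM or more were tested with limma 3.58.1 (R 4.3.3) on log2(TPM + 0.5), with 1 coefficient per group and a prior variance following log2(mean TPM × exon length + 1). Names and coordinates came from GENCODE M21, which held 22490 of the 22556 genes. Read depth was estimated from the spacing of TPM values below 20 estimated reads (51.2 to 62.5% near whole multiples within 0.1, against 19.3 to 20.5% with lengths shuffled). On simulated data, 150 of 200 genes changed 4-fold were recovered with 17 false calls among 16763 tested genes. The members and gene lists were chosen with earlier results of these data known. The rule for named genes was the members and, in each list reported, those called and the 2 largest and 2 smallest changes. Lowest values were named for the latter, not every gene under the rule is named, and some were chosen after their values were seen. Same-numbered mice did not deviate together (correlations -0.004 to 0.035). Alternatives were other pseudocounts, filters, scalings, priors, voom on estimated reads, a replicate block and leaving out each mouse. Some genes of the lists are not reported here.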

Additional observations from a re-analysis of the deposited data

How the results depend on the processing

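No member changed direction under any alternative. Apart from leaving out a mouse, 318 values kept their side of the threshold, 11 lost it and 1 gained it, and with a mouse left out 162 kept it and 18 lost it. Called genes in AP against saline mice were 3730, and 2458 to 3757 with a mouse left out, lowest without AP replicate 2. In polyI:C AP against AP mice 142 genes were called, against 90 with no filter, 28 with a prior following the mean, 41 with 1 prior for all genes, 321 with voom, 248 with the 4 compared mice alone, and 0 to 141 with a mouse left out. It was 0 without AP replicate 1, AP replicate 2 or polyI:C AP replicate 2, and 66 without polyI:C AP replicate 1. The cause was not tested. Of the 3 members called there, none was called with 1 prior for all genes (adjusted p of 0.0555 for B2m, limma), and 0 to 3 with a mouse left out. H2-D1 was called in 10 of 17 fits, and B2m and H2-K1 in 12, with adjusted p of 0.000451 to 0.267 for B2m. Nlrc5 in that comparison was called with voom (adjusted p = 0.0426), and Nlrc5 in AP against saline mice in 5 of 17 fits (adjusted p of 0.0183 to 0.140).

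The summed subunit ratio turned from -1.27 to 0.49 in AP against saline mice as the mean of the 3 single log2 ratios, and to 1.43 without Psmb10 and Psmb7, with -1.37 to -1.17 with a mouse left out. In polyI:C AP against AP mice it went from 0.042 to 0.32 and 0.59, and to -0.046 without AP replicate 2 and -0.016 without polyI:C AP replicate 2 (-0.046 to 0.129 over the mice left out). In polyI:C AP against saline mice it went from -1.23 to 0.81 and 2.02. The replicate block, which pairs mice by number, gave 3646, 124 and 3287 called genes and 9, 3 and 9 members in the 3 comparisons, and changed no call of a member. The saline libraries are the shallowest, which limits Psmb9, Psmb8, Tap1 and Nlrc5 most.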
